A study of Mus musculus with 34 samples.

Results

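The genes described here are 36 genes that a cell transcribes when it copies its DNA and divides. They were chosen by symbol, as the standard replication and mitosis genes, and their probes were found through the RefSeq accession that the array gives each probe. A probe was found for 34 of the 36 genes, among 16535 genes that could be named on the array. These genes had 44 of its 41174 probes, and 23374 of those 41174 carried an accession that matched a gene symbol. Mki67, the usual proliferation marker, and Gins1 had no matching probe and were not analysed here, so Top2a is the proliferation marker that could be measured. Of the 34 genes, 25 had 1 probe, 8 had 2 and 1 had 3. Where a gene had several, the brightest probe gives its value.

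Cells enter the division cycle when cyclin D with its kinase partners releases E2F factors, which switch on the genes that license and copy DNA. Mitosis genes come later in the cycle and are commonly switched on through the CHR and CCAAT promoter elements by complexes that include B-Myb and FOXM1. In the postnatal liver many hepatocytes still divide, division slows as the pup approaches weaning, and thyroid hormone given to a rodent is a known stimulus for hepatocyte division.

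Livers came from C57BL/6 mouse pups on postnatal day 15, and the study asked which hepatic transcripts respond to a brief change in thyroid hormone. Control pups (4 males, 4 females) received saline by intraperitoneal injection 4 h before collection. Hypo pups (4 males, 5 females) received the same saline after their dams had drunk methimazole (0.05%) and perchlorate (1%) for 3 days, agents that block thyroid hormone synthesis and iodide uptake. Hyper pups (5 males, 5 females) had no goitrogen and received thyroxine at 50 µg with triiodothyronine at 5 µg per 100 g body weight 4 h before collection. Hypo+ pups (4 males, 3 females) had the 3 days of goitrogen and then thyroxine at 20 µg with triiodothyronine at 2 µg per 100 g, also 4 h before collection. By the study's methods, hypo+ pups were kept for the arrays by serum thyroxine near or slightly above control. Pups of the same treatment with higher serum thyroxine were set apart and left off the arrays. The study's results report serum thyroxine in hypo+ pups as significantly above control. The pups are the replicates. They are named by animal number, whose leading digits were read as the litter, which the labels do not state: the 8 controls would then come from 4 litters, the 9 hypo from 5, the 10 hyper from 6 and the 7 hypo+ from 5.

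Each value is the log2 ratio of a pup's liver signal (Cy5) to a universal mouse reference RNA (Cy3) on 1 array, so a negative value is a liver signal below that of the reference. A difference between groups is in log2 units too. The 34 arrays lay on 11 slides scanned in 6 batches, with a median Cy5 signal of 146 to 199 and 60.81 to 79.4% of spots well above background. Hepatocyte markers averaged 4.07 to 5.65 log2 units above the reference in all 34 pups, which fits the labelled tissue. Digestive enzyme genes of the exocrine pancreas stood high in control males 522 and 832, control female 831 and 1 hypo+ female, with list means of 4.16, 4.54, 3.45 and 2.08. The probes that give the members' values were above background on all 34 arrays, except Ttk (28 arrays) and Cdk2 (30 arrays), and no member spot was saturated. Their mean Cy5 signals ran from 115 for Ttk to 12500 for Mcm6, and the number of arrays limits the precision. In whole liver RNA, fewer dividing cells and less RNA per dividing cell cannot be told apart.

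Promoters are shown for 4 genes that carry the results below, Mcm3 and Mcm6 for DNA licensing, Top2a for DNA synthesis and Bub1b for mitosis. Each is 250 bases before and 50 after the transcription start, read 5′ to 3′ along the gene, from RefSeq on GRCm38.p6. Capitals mark E2F elements (TTTCCCGC or TTTGGCGC), the CHR element (TTTGAA) and CCAAT, on either strand, so an element on the other strand is printed as its reverse complement.
Mcm3, chr1:20820263-20820562, strand -: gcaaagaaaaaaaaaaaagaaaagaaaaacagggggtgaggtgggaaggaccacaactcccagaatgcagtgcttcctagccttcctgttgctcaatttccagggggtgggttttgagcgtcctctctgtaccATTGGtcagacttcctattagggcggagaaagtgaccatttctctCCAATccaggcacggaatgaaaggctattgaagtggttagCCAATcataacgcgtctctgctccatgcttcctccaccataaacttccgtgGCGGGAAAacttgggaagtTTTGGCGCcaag
Mcm6, chr1:128359656-128359955, strand -: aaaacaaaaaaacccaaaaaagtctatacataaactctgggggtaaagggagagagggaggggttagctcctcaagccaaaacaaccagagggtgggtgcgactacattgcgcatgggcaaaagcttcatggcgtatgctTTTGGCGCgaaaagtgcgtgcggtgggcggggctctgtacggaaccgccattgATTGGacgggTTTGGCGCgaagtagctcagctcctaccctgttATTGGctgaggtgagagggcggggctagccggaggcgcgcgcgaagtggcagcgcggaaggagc
Top2a, chr11:99024140-99024439, strand -: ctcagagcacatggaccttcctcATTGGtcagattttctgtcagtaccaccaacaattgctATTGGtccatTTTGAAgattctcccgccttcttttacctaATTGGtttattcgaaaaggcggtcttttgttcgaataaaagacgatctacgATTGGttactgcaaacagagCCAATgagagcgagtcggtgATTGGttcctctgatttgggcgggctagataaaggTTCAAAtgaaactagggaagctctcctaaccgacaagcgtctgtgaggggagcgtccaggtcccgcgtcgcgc
Bub1b, chr2:118597961-118598260, strand +: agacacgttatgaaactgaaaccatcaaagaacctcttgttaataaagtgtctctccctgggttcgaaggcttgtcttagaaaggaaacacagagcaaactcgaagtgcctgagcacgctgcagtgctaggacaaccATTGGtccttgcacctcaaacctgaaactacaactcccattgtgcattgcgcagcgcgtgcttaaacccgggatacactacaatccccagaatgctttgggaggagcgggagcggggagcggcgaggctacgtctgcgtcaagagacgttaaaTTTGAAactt
Mcm3 held 2 E2F elements, both after the start, and 3 CCAAT boxes, and Mcm6 held 2 E2F elements before the start and 2 CCAAT boxes. Top2a held no E2F element, 2 CHR elements and 6 CCAAT boxes, and Bub1b held 1 CHR element and 1 CCAAT box.

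RefSeq promoters were found for 27 of the 34 measured genes, 29 promoters in all, since Mcm7 and Prc1 have 2. Mcm4, Ccnd1, Ccne2, Ccna2, Aurkb, Kif20a and Foxm1 had no entry. An E2F element lay in 7 of the 29 promoters (24.1%) and in 514 of all 32851 promoters in the table (1.56%). The CHR element lay in 12 of 29 (41.4%) against 17.9% of all, and CCAAT in 23 of 29 (79.3%) against 37.4%. The AGGTCA hexamer, the unit that thyroid hormone receptors bind as a pair, lay in 4 of 29 (13.8%) and in 16.3% of all promoters. Of 12 replication genes with a promoter, 6 held an E2F element (Cdc6, Cdt1, Mcm3, Mcm5, Mcm6 and Mcm7) and 2 a CHR element (Mcm2 and Top2a), while of 10 mitosis and spindle genes 0 held E2F and 7 held CHR (Aurka, Bub1b, Cdc20, Kif11, Plk1, Prc1 and Ttk). Of 5 cyclin and kinase genes, 1 held E2F (Cdk2) and 2 held CHR. CCAAT lay in 9 of the 12, 8 of the 10 and 4 of the 5, and no difference between the roles was tested. No elements overlapped in the member promoters, whose median GC content was 58.7% against 52.7% for all. A match of letters is a description of the window and says nothing of what binds there.

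**Figure D1:**
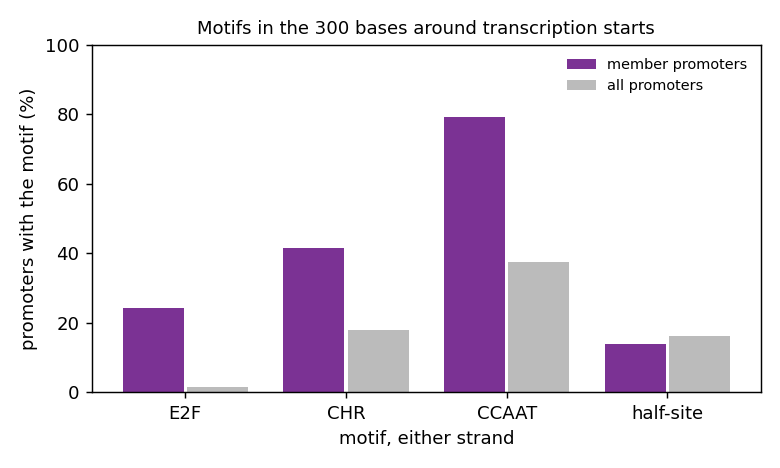
Share of promoters (vertical axis, percent, bars from 0) that hold each element, for the 29 promoters of the replication and mitosis genes and for all 32851 RefSeq promoters of the same length. E2F, CHR and CCAAT elements were more frequent among the members, at 24.1, 41.4 and 79.3%, and AGGTCA, the pair of bars at the right, was at 13.8% against 16.3%.

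The replication and mitosis genes were lowest in hypo+ pups, in both sexes. The mean over the 34 genes was -1.38, -1.08, -1.20 and -1.01 in control males 391, 522, 832 and 881, and -1.35, -1.09, -1.02 and -1.36 in control females 394, 523, 831 and 882. In hypo males 311, 576, 723 and 891 it was -1.32, -1.06, -1.17 and -1.12, and in hypo females 316, 575, 721, 743 and 893 it was -1.38, -1.32, -1.15, -1.24 and -1.26. These control and hypo means overlap throughout. Hyper males 498, 583, 696, 784 and 864 were at -1.52, -1.21, -0.91, -1.17 and -1.004, and hyper females 499, 585, 621, 783 and 861 at -1.02, -1.19, -1.21, -1.13 and -1.11. Male 498 was the only pup outside hypo+ whose mean lay below the lowest control. Hypo+ males 363, 454, 546 and 761 were at -1.71, -1.46, -1.24 and -1.75, and hypo+ females 543, 601 and 763 at -1.41, -1.96 and -1.51. Male 546 lay among the controls and the other 6 hypo+ pups lay below the lowest control. Hyper male 498 was lower than hypo+ pups 454, 543, 546 and 763. Group means were -1.17 ± 0.16 (SD, n = 4) in control males, -1.20 ± 0.18 (n = 4) in control females, -1.54 ± 0.24 (n = 4) in hypo+ males and -1.63 ± 0.29 (n = 3) in hypo+ females.

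**Figure D2:**
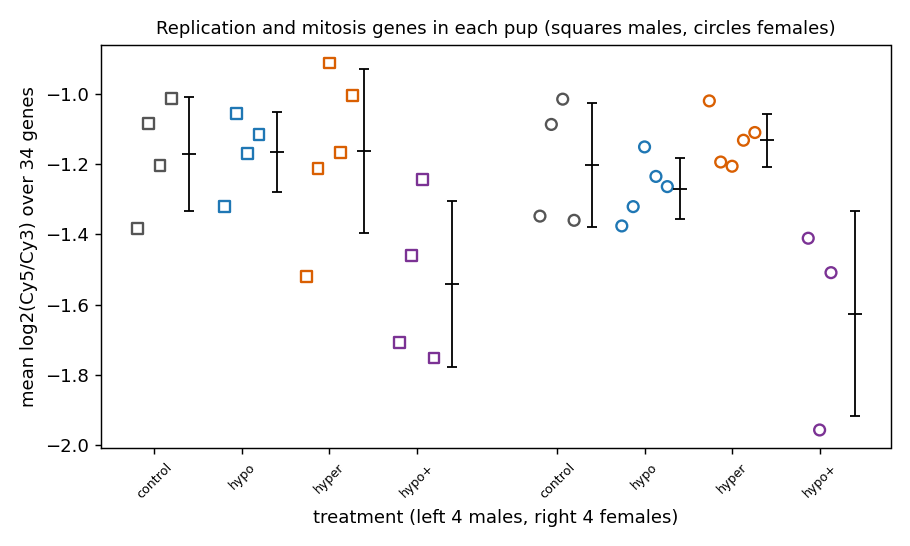
Mean log2 Cy5/Cy3 ratio over the 34 measured replication and mitosis genes (vertical axis) for each of 34 pups by group and sex, with each point 1 pup and bars the group mean ± SD. The control, hypo and hyper groups overlap, while 6 of 7 hypo+ pups lie below every control pup and female 601 is the lowest at -1.96. Hyper male 498, at -1.52, lies below hypo+ pups 454, 543, 546 and 763.

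The low values ran across the whole list rather than through a few genes. In 6 of the 7 hypo+ pups, 32 to 34 of the 34 genes were below the gene's own median over all pups, and in male 546 it was 16. In pups of the other groups the count ran from 0 in hyper female 499 to 30 in control female 882. It was 29 in control male 391 and 26 in control female 394 and hypo female 316, so the genes were low together in some of these pups too. Every one of the 34 genes had its lowest value of all 34 pups in a hypo+ pup: female 601 held 25 of them, male 761 held 4, males 363 and 454 held 2 each and male 546 held 1. Most of this count thus comes from 1 array, on slide 6, which held hypo+ pups alone. The share of all probes below their own median in each pup was not counted. Nor was the share of all probes with their lowest value in a hypo+ pup. Hyper male 498 was low in part of the list. Its mitotic kinase and checkpoint genes averaged -1.94 and its spindle genes -1.99, while its licensing genes averaged -1.32, inside the control range of -1.63 to -1.24.

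Tested within each sex with all 4 groups in limma and p-values adjusted over all 41174 probes, no member probe passed adjusted p = 0.05 in any comparison. For hypo+ against control, 0 of 44 member probes were called in males and 0 in females, beside 0.0267% and 0.0219% of all probes. At unadjusted p below 0.05, 22 of 44 were lower in males and 34 of 44 in females, where 4.08% and 2.60% of all probes were lower. Against hypo, the counts were again 0 and 0 (0.369% and 0.556% of all probes called), and 24 and 26 at unadjusted p below 0.05 and lower (4.93% and 4.31%). The smallest adjusted p of a member was 0.414 in males and 0.296 in females against control, and 0.0912 in males and 0.0563 in females, for Mcm5, against hypo.

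Complete separation of the groups was counted as well. Every hypo+ male lay below every control male at 3 of 44 member probes, where 2.10% of all probes did so, and below every hypo male at 7 (2.41%). Every hypo+ female lay below every control female at 18 of 44 probes (3.46%) and below every hypo female at 12 (2.71%). The comparisons with control share the control pups, and both hypo+ comparisons share the hypo+ pups, so these counts are not independent of each other.

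Median differences over the 34 genes were of similar size in the sexes. Against control the median was -0.37 in males (33 genes lower) and -0.41 in females (34 lower), and against hypo -0.39 and -0.36 (33 lower in each), where the median over all probes lay between -0.01 and 0.00. A test of whether the response differed between the sexes called 0 of 44 member probes for hypo+ against control and 0 against hypo in limma, with 0 and 1 at unadjusted p below 0.05. It also called 0 of all 41174 probes in each comparison, so the 0 calls tell nothing particular about the members. The sexes were also fitted together, with sex as a term and the inferred litter as a random block (consensus correlation 0.0987). The joint fit is given in full because the single-sex fits made no call.

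In the joint fit 8 member probes, each of a different gene, were lower in hypo+ than in control at adjusted p below 0.05, where 0.316% of all probes were. These were Mcm3, Mcm6, Mcm7, Cdt1, Top2a, Bub1b, Kif20a and Nusap1. Against hypo 12 genes were lower (1.40% of all probes) and 0 higher (1.61% of all probes): the same 8 and Mcm5, Pcna, Rrm1 and Tyms. At unadjusted p below 0.05, 33 of 34 genes were lower against control and 31 against hypo, where 5.94% and 7.72% of all probes were. The median difference was -0.39 against control and -0.36 against hypo, beside -0.01 over all probes in each. These calls rest on few pups. Leaving out control male 881, hypo+ male 363 or hypo+ female 601 left 0 calls against control, and without female 601 there were 4 against hypo. With each array centred on its median in place of loess, 0 passed against either group. The shares of all probes called in these refits were not counted.

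**Figure D3:**
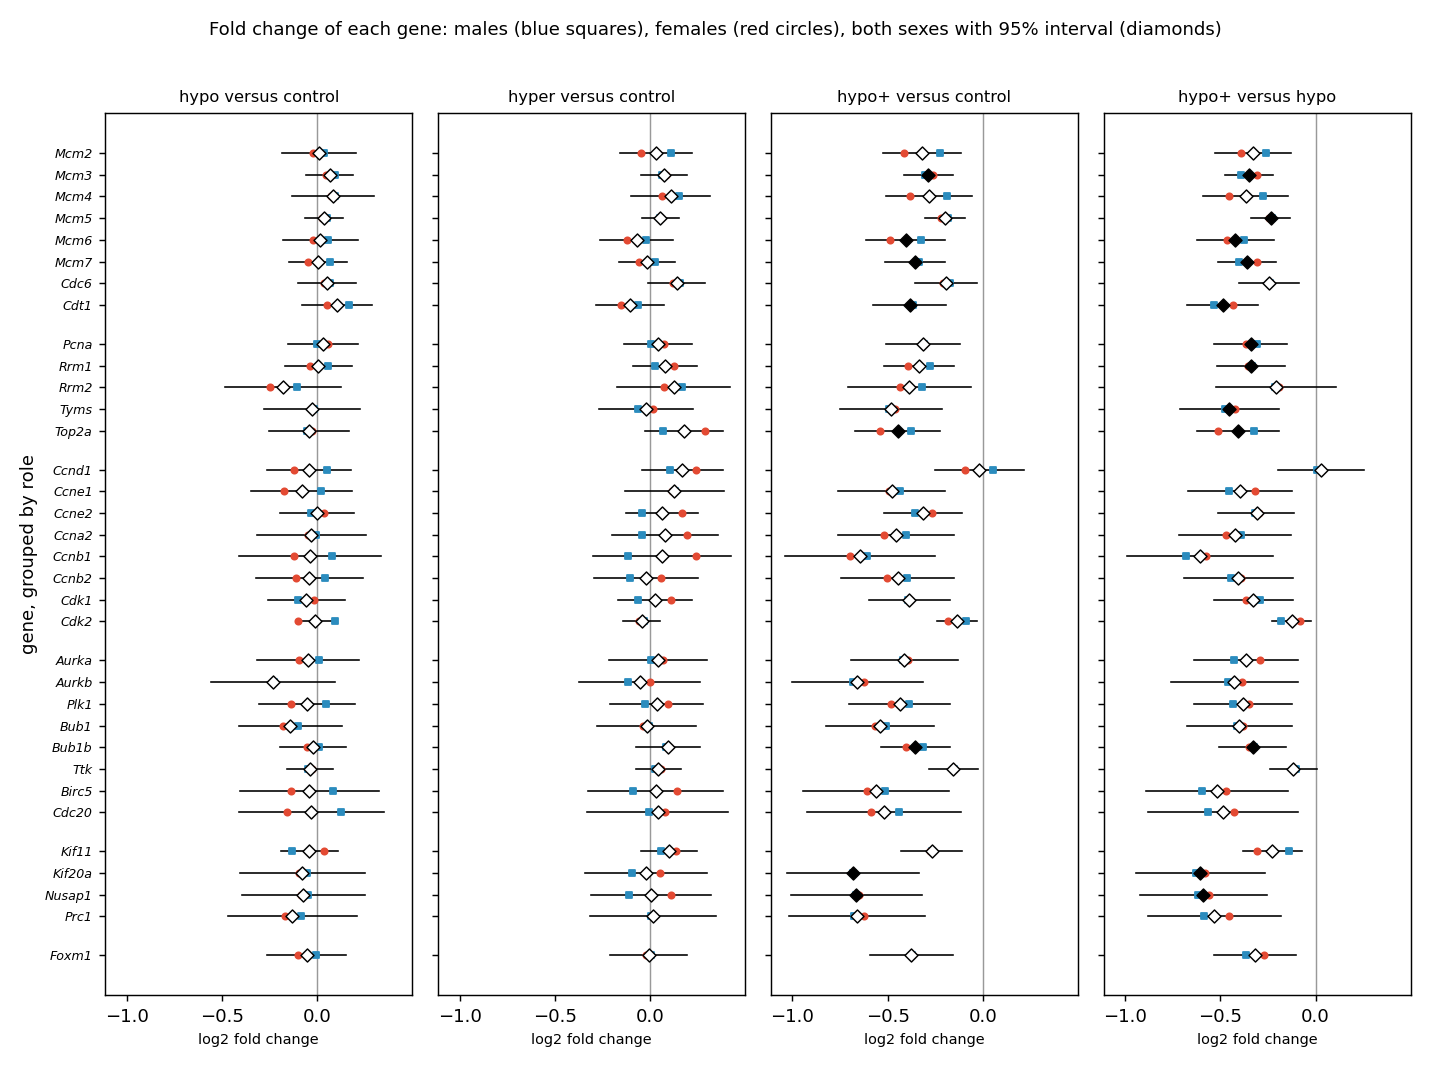
Log2 difference of each measured member (rows, grouped by role) in 4 panels, hypo, hyper and hypo+ against control and hypo+ against hypo, with blue squares for males, red circles for females, and diamonds with 95% interval bars for both sexes fitted together with litter as a random block. Black diamonds mark adjusted p below 0.05, which are 8 genes for hypo+ against control and 12 against hypo. In those panels almost all points lie left of 0, with Ccnd1 beside it, and in the hypo and hyper panels points lie on both sides.

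The licensing genes load the replicative helicase onto DNA before it is copied. Of 8 measured, 4 passed against control (median difference -0.30) and 5 against hypo (median -0.36), all lower, beside 0.316% and 1.40% of all probes. Mcm3, a helicase subunit, was at -1.34, -1.20, -1.52 and -1.20 in control males and -1.38, -1.36, -1.42 and -1.40 in control females. In hypo pups Mcm3 read -1.06, -1.36, -1.32 and -1.14 in males and -1.43, -1.11, -1.39, -1.40 and -1.39 in females. Hypo+ males had Mcm3 at -1.67, -1.60, -1.47 and -1.72 and hypo+ females at -1.65, -1.74 and -1.56. The hypo+ values lay below all 9 hypo pups without overlap, and 6 of the 7 below all 8 controls. Mcm3 fell against control (log2 difference -0.29, SE 0.063, 1.22-fold lower, adjusted p = 0.0219) and against hypo (log2 difference -0.35, SE 0.062, 1.28-fold lower, adjusted p = 0.00051).

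Mcm6, the brightest member and another helicase subunit, was at -1.04, -0.98, -0.93 and -0.54 in control males and -1.06, -0.90, -0.76 and -1.03 in control females. For hypo pups Mcm6 was -0.86, -0.51, -0.98 and -0.93 in males and -1.04, -0.94, -0.69, -1.02 and -1.11 in females. The 4 hypo+ males had -1.42, -1.18, -0.88 and -1.30, and the 3 hypo+ females -1.28, -1.79 and -1.19. Male 546, at -0.88, overlapped both groups and the other 6 were below every control and every hypo pup. With hyper pups included, 3 of 7 were below all 27 pups of the other groups. Mcm6 fell by the joint fit against control (log2 difference -0.41, SE 0.10, 1.32-fold lower, adjusted p = 0.0465) and against hypo (log2 difference -0.42, SE 0.099, 1.34-fold lower, adjusted p = 0.0115).

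Mcm7, also of the helicase, was low in the same 6 hypo+ pups. Its values were -1.45, -1.17, -1.45 and -1.12 in control males, -1.40, -1.27, -1.18 and -1.44 in control females, -1.24, -0.98, -1.35 and -1.36 in hypo males and -1.35, -1.35, -1.28, -1.47 and -1.40 in hypo females. Hypo+ males had Mcm7 at -1.89, -1.67, -1.37 and -1.60 and hypo+ females at -1.58, -1.95 and -1.50. Here 6 of 7 hypo+ pups were below all 27 pups of the other groups, hyper included, and male 546 was again the exception. Mcm7 fell against control (log2 difference -0.36, SE 0.078, 1.28-fold lower, adjusted p = 0.021) and against hypo (log2 difference -0.36, SE 0.076, 1.28-fold lower, adjusted p = 0.00403).

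Cdt1, which brings the helicase to origins, was the licensing gene with the largest difference from hypo. It was at -2.29, -2.44, -2.51 and -2.04 in control males, -2.46, -2.33, -2.25 and -2.45 in control females, -2.14, -1.96, -2.16 and -2.37 in hypo males and -2.40, -2.41, -2.08, -2.40 and -2.33 in hypo females. In hypo+ pups Cdt1 was -2.89, -2.58, -2.56 and -2.72 in males and -2.67, -2.98 and -2.62 in females. All 7 hypo+ pups were below all controls and all hypo pups, but hyper pups reached as low as -2.86, so only 2 of 7 were below every other pup. Cdt1 fell against control (log2 difference -0.38, SE 0.095, 1.31-fold lower, adjusted p = 0.0418) and against hypo (log2 difference -0.49, SE 0.092, 1.4-fold lower, adjusted p = 0.00128).

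Mcm5, a helicase subunit that passed only against hypo, was at -0.79, -0.84, -0.85 and -0.87 in hypo males, -0.88, -0.73, -0.92, -0.92 and -0.96 in hypo females, -1.18, -0.96, -0.95 and -1.18 in hypo+ males and -1.09, -1.19 and -1.11 in hypo+ females. The value of hypo+ male 546 lay within the hypo range. The difference from hypo was -0.24 (SE 0.050, adjusted p = 0.00484), and that from control, where pups ran from -1.09 to -0.71, was -0.20 (adjusted p = 0.0539). Whether the differences from control and from hypo are unequal was not tested. Mcm2, Mcm4 and Cdc6, which helps load the helicase, did not pass, with differences from control of -0.32, -0.28 and -0.19 (adjusted p = 0.14, 0.285 and 0.32) and from hypo of -0.33, -0.37 and -0.25 (adjusted p = 0.0618, 0.0571 and 0.0845).

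Of the 5 DNA synthesis and nucleotide supply genes, 1 passed against control (median difference -0.39) and 4 against hypo (median -0.34), all lower. Of all probes, 0.316% and 1.40% were called lower. Top2a, the topoisomerase that untangles copied DNA and the proliferation marker of the set, was at -1.99, -1.54, -2.06 and -1.86 in control males and -2.10, -1.73, -1.76 and -2.27 in control females. Its hypo values were -1.95, -2.01, -1.93 and -1.78 in males and -1.96, -1.91, -2.12, -1.95 and -2.03 in females. Hypo+ pups had Top2a at -2.53, -2.02, -2.14 and -2.28 in males and -2.34, -2.69 and -2.48 in females. All 3 hypo+ females were below every other female, and among the hypo+ males 454, at -2.02, overlapped the control males. Top2a fell against control (log2 difference -0.45, SE 0.11, 1.36-fold lower, adjusted p = 0.0396) and against hypo (log2 difference -0.41, SE 0.11, 1.32-fold lower, adjusted p = 0.0269). A dimmer Top2a probe, with a mean Cy5 signal of 143 against 336, differed from control by -0.11 (SE 0.078, adjusted p = 0.708), so the probes of this gene disagree. Local background was not subtracted, and the part of the low signal in this was not tested.

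Pcna, the sliding clamp of the DNA polymerases, was at -1.18, -0.79, -1.20 and -1.11 in hypo males, -0.99, -1.08, -1.06, -1.10 and -1.26 in hypo females, -1.45, -1.53, -1.05 and -1.47 in hypo+ males and -1.26, -1.82 and -1.30 in hypo+ females. Rrm1, the large subunit of ribonucleotide reductase, was at -1.51, -1.38, -1.59 and -1.31, at -1.65, -1.57, -1.69, -1.58 and -1.70, at -2.10, -1.64, -1.56 and -1.84 and at -1.78, -2.39 and -1.80 in the same groups. Tyms, which makes thymidylate for DNA, was at -0.74, -0.33, -0.62 and -0.37, at -0.60, -0.95, -0.37, -0.65 and -0.62, at -1.17, -0.81, -0.68 and -1.30 and at -0.79, -1.47 and -0.93. In each of these genes female 601 was the lowest of all pups and male 546 was the highest of the hypo+ pups. Pcna fell against hypo by 0.34 on the log2 scale (SE 0.093, adjusted p = 0.0357), Rrm1 fell by 0.34 (SE 0.088, adjusted p = 0.0244) and Tyms fell by 0.45 (SE 0.13, adjusted p = 0.0437). Against control, where they ran from -1.40 to -0.89, -1.76 to -1.34 and -0.83 to -0.14, their differences were -0.31, -0.34 and -0.48 (adjusted p = 0.118, 0.0643 and 0.0667). Rrm2, the small subunit of the reductase, differed by -0.39 from control and -0.21 from hypo (adjusted p = 0.321 and 0.634), with hypo+ pups at -2.04 to -0.86 and controls at -1.43 to -0.57.

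No cyclin or cyclin-dependent kinase gene passed in the limma joint fit (0 of 8, against either group), although 7 of 8 were lower at unadjusted p below 0.05 against control (5.94% of all probes) and 7 against hypo (7.72%), with median differences of -0.42 and -0.36. Ccnb1, the cyclin of mitotic entry, had the largest difference of them, -0.65 from control (95% interval -1.04 to -0.25, adjusted p = 0.108) and -0.61 from hypo (-0.99 to -0.23, adjusted p = 0.0741). Hypo+ pups had Ccnb1 at -2.50, -1.90, -1.87 and -2.73 in males and -2.05, -2.76 and -2.44 in females, against -2.20, -1.46, -1.37 and -1.54 in control males and -2.08, -1.40, -1.51 and -1.88 in control females. The groups overlapped, since controls 391 and 394 were lower than hypo+ pups 454, 543 and 546. Cdk1, the mitotic kinase, had a difference of -0.39 and the smallest adjusted p among them against control (0.0643), and a second, dim Cdk1 probe, above background on 19 arrays, differed by 0.01. Ccna2 (cyclin A) and Ccnb2 differed from control by -0.46 and -0.45, and Ccne1 and Ccne2, the cyclins of entry into DNA synthesis, by -0.48 and -0.31. Cdk2, whose probe was close to background, differed by -0.14.

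Ccnd1, cyclin D1, which couples growth signals to the cycle, had the smallest difference of all members from either group. It was at -0.60, -0.39, -0.15 and -0.42 in hypo+ males and -0.25, -0.77 and -0.08 in hypo+ females. Controls were at -0.44, -0.70, -0.16 and -0.48 in males and -0.19, -0.41, -0.16 and -0.33 in females, overlapping the hypo+ pups. The difference was -0.02 from control (95% interval -0.25 to 0.22, adjusted p = 0.983) and 0.03 from hypo (-0.20 to 0.25), the only member with a value above 0 in the joint fit against hypo. Whether Ccnd1 differs from the other members was not tested.

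Of the 8 mitotic kinase, checkpoint and APC/C genes, 1 passed against control (median difference -0.48) and 1 against hypo (median -0.39). Of all probes, 0.316% and 1.40% were called lower. All 8 genes were lower, and the same gene passed in each comparison. That gene was Bub1b, a kinase-like protein of the spindle checkpoint that holds back chromosome separation. It was at -1.82, -1.51, -1.73 and -1.58 in control males, -1.69, -1.49, -1.63 and -1.84 in control females, -1.63, -1.80, -1.55 and -1.62 in hypo males and -1.61, -1.59, -1.85, -1.76 and -1.78 in hypo females. Hypo+ pups had Bub1b at -1.99, -1.88, -1.80 and -2.22 in males and -1.99, -2.14 and -2.08 in females. Here 6 of 7 hypo+ pups were below every control and every hypo pup. With hyper pups included, 2 of 7 were below all 27 pups of the other groups. Bub1b fell against control (log2 difference -0.35, SE 0.090, 1.28-fold lower, adjusted p = 0.0481) and against hypo (log2 difference -0.33, SE 0.087, 1.26-fold lower, adjusted p = 0.0289).

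Several mitotic genes had larger differences than Bub1b with wider spread. Aurkb, the kinase of the chromosomal passenger complex, was at -2.25, -1.65, -1.72 and -2.09 in hypo+ males and -1.78, -2.20 and -1.87 in hypo+ females. Its control values were -1.62, -1.09, -1.53 and -0.74 in males and -1.51, -1.11, -1.05 and -1.64 in females. All 7 hypo+ pups lay below all 8 controls, and 3 of 7 lay below all 9 hypo pups. The difference from control was -0.66 (SE 0.17, adjusted p = 0.0517) and from hypo -0.43 (adjusted p = 0.195), neither past the threshold. Bub1, the checkpoint kinase, differed from control by -0.54 (adjusted p = 0.0517), Birc5 (survivin, a partner of Aurkb) by -0.56 (0.176), and Cdc20, which activates the APC/C, by -0.52 (0.265). Plk1 and Aurka, kinases of spindle assembly, differed by -0.44 and -0.41. Ttk, another checkpoint kinase and the dimmest member, differed by -0.15.

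The 4 spindle genes had the largest median differences of any role, -0.66 from control and -0.56 from hypo, and 2 of them passed in each comparison. The shares of all probes called lower were 0.316% and 1.40%. Kif20a, a motor of cell cleavage, was at -1.53, -0.85, -1.02 and -0.79 in control males and -1.29, -0.96, -0.88 and -1.40 in control females. In hypo pups Kif20a was at -1.32, -1.07, -0.86 and -1.15 in males and -1.53, -1.48, -0.90, -1.27 and -0.96 in females. Hypo+ males had -2.07, -1.50, -1.23 and -2.12 and hypo+ females -1.37, -2.31 and -1.75. Only 4 of 7 hypo+ pups were below every control, since 454, 543 and 546 overlapped them. Kif20a fell against control (log2 difference -0.68, SE 0.17, 1.61-fold lower, adjusted p = 0.0443) and against hypo (log2 difference -0.61, SE 0.17, 1.52-fold lower, adjusted p = 0.0363).

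Nusap1, which binds and bundles spindle microtubules, was at -1.86, -1.06, -1.48 and -1.35 in control males, -1.64, -1.21, -1.20 and -1.79 in control females, -1.79, -1.32, -1.51 and -1.33 in hypo males and -1.54, -1.74, -1.40, -1.50 and -1.57 in hypo females. Hypo+ pups had Nusap1 at -2.22, -2.07, -1.68 and -2.44 in males and -1.73, -2.67 and -1.94 in females. Of the 7, 5 were below every control and 5 below every hypo pup, but only 1 was below all 27 pups of control, hypo and hyper. Nusap1 fell against control (log2 difference -0.66, SE 0.17, 1.58-fold lower, adjusted p = 0.0481) and against hypo (log2 difference -0.59, SE 0.16, 1.5-fold lower, adjusted p = 0.0399). Prc1, which bundles microtubules midway between the separating chromosomes, was of like size but did not pass (-0.66 from control, adjusted p = 0.0607, and -0.53 from hypo, adjusted p = 0.0924). Kif11, the motor that pushes spindle poles apart, differed from control by -0.27 (adjusted p = 0.0983). All 7 hypo+ pups had Kif11 below all controls, and 3 of 7 were below every control, hypo and hyper pup. A second Kif11 probe, above background on 1 array, differed from control by -0.03.

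Foxm1, the transcription factor that drives many of the mitotic genes, differed by -0.38 from control (SE 0.11, adjusted p = 0.0861) and -0.32 from hypo (adjusted p = 0.101). Hypo+ pups ran from -1.57 to -1.01, controls from -1.21 to -0.73 and hypo pups from -1.23 to -0.83, so the groups overlapped.

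**Figure D4:**
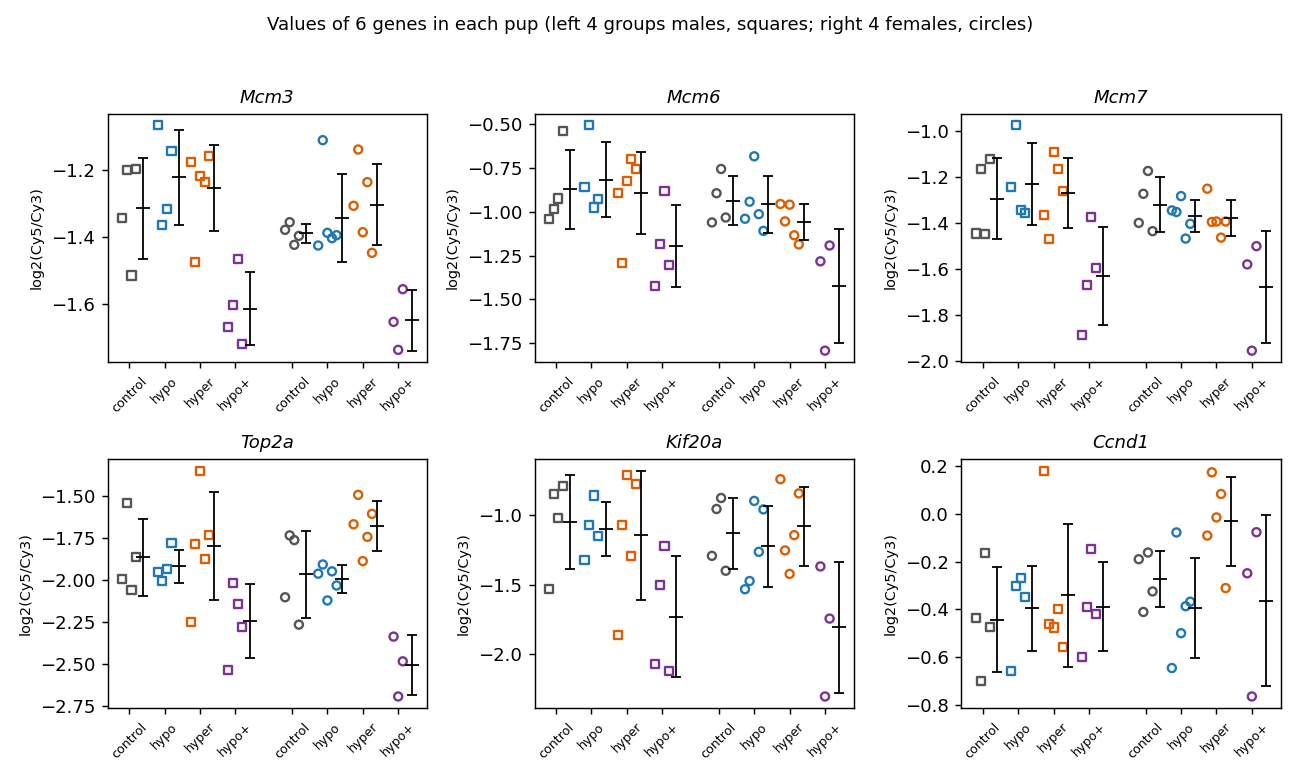
Log2 Cy5/Cy3 ratio (vertical axis) of Mcm3, Mcm6, Mcm7, Top2a, Kif20a and Ccnd1 in each pup by group and sex, with bars for the mean ± SD. Within each sex the hypo+ mean is the lowest of the 4 groups in all of these genes but Ccnd1, although hyper male 498 lies below some hypo+ pups in Top2a and Kif20a, with male 546 nearest the other groups in Mcm3, Mcm6, Mcm7 and Kif20a, while Ccnd1 overlaps across the control, hypo and hypo+ groups.

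Goitrogen alone showed no called member. Hypo against control gave 0 of 44 member probes in limma in males and 0 in females (0.0971% and 0.155% of all probes called), and 0 and 0 at unadjusted p below 0.05 (5.19% and 4.72% of all). The joint fit called 0 as well (1.01% of all probes called), with 0 of 34 genes at unadjusted p below 0.05 (7.85% of all). Median differences were 0.02 in males (19 genes higher, 15 lower) and -0.05 in females (8 higher, 26 lower). The largest were in Aurkb, at -0.23 in males and -0.23 in females, Rrm2, at -0.11 and -0.25, and Bub1, at -0.10 and -0.18. For Aurkb, hypo males at -1.64, -1.36, -1.45 and -1.44 and hypo females at -1.85, -1.99, -1.26, -1.46 and -1.24 overlapped the controls. The 95% interval of the joint fit for Top2a was -0.25 to 0.17.

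Hormone alone, at the higher dose, also showed no called member. Hyper against control gave 0 of 44 in limma in males and 0 in females (0.0753% and 0.158% of all probes), with 0 in males and 1 in females at unadjusted p below 0.05 (2.98% and 6.15% of all). The joint fit called 0 (0.797% of all probes called), and 0 of 34 genes had an unadjusted p below 0.05 (6.49% of all). Median differences were 0.00 in males (18 of 34 genes higher) and 0.07 in females (26 higher). The single probe was Top2a in females, at -1.67, -1.49, -1.89, -1.74 and -1.61 in hyper pups, all but 621 and 783 above every control female. Its difference was 0.29 (unadjusted p = 0.0167, adjusted p = 0.632), against 0.07 in males. Ccnd1 differed by 0.10 in males and 0.24 in females, and Cdc6 by 0.16 and 0.12. Tests of a sex difference called 0 of 44 member probes in limma for hypo (1 at unadjusted p below 0.05) and 0 for hyper (0 at unadjusted p below 0.05). They called 0 of all 41174 probes in each comparison too.

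The hormone injection was given with and without goitrogen, so its effects were compared. Taking hypo+ minus hypo less hyper minus control, 1 of 44 member probes passed, beside 0.0461% of all probes. It was Mcm3, at -0.42 (SE 0.085, adjusted p = 0.043): the injection went with a difference of -0.35 in goitrogen pups and 0.07 (95% interval -0.05 to 0.19) in pups without it. The injected dose differed between the arms, so dose and goitrogen cannot be told apart here.

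Arrays of the same slide were compared too, since a slide holds several groups. On the 5 slides with a hypo+ and a control pup of the same sex, the mean over the 34 genes in hypo+ minus that in control was -0.38 (33 of 34 genes lower), -0.37 (33), -0.42 (33) and -0.40 (34) on slides 3, 5, 7 and 8, and -0.04 (20) on slide 2, which held male 546. On the 4 slides with a hypo+ and a hypo pup the difference was -0.19 (31 genes lower), -0.14 (27), -0.27 (32) and -0.26 (33) on slides 2, 3, 7 and 8. The other groups also differed from the control of their slide and sex. Hypo minus control was 0.15, -0.24, -0.15 and -0.14 on slides 2, 3, 7 and 8, and hyper minus control was 0.04, -0.44, 0.17, -0.12 and -0.18 on slides 2, 3, 5, 7 and 8. On slide 3 hyper male 498 was thus further below its control than the hypo+ pup, with 26 of 34 genes lower. Over all slides with such pairs, hypo minus control ran from -0.24 to 0.15 and hyper minus control from -0.44 to 0.33. The share of all probes that were lower between pups of a slide or batch was not counted. Slide 6 held hypo+ male 363 and hypo+ female 601 alone. Within their scan batch, hypo+ males 363 and 761 together were at -0.35 from the only control male, 391. Female 601 was at -0.60 from the only control female, 882. All 34 genes were lower in each of these comparisons. Without 363 and 601, the joint fit made 0 calls against control and 2 against hypo. Fitted with a fixed slide term it made 0 and 2, and with a fixed scan batch term 11 and 6. The shares of all probes called in these fits were not counted.

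**Figure D5:**
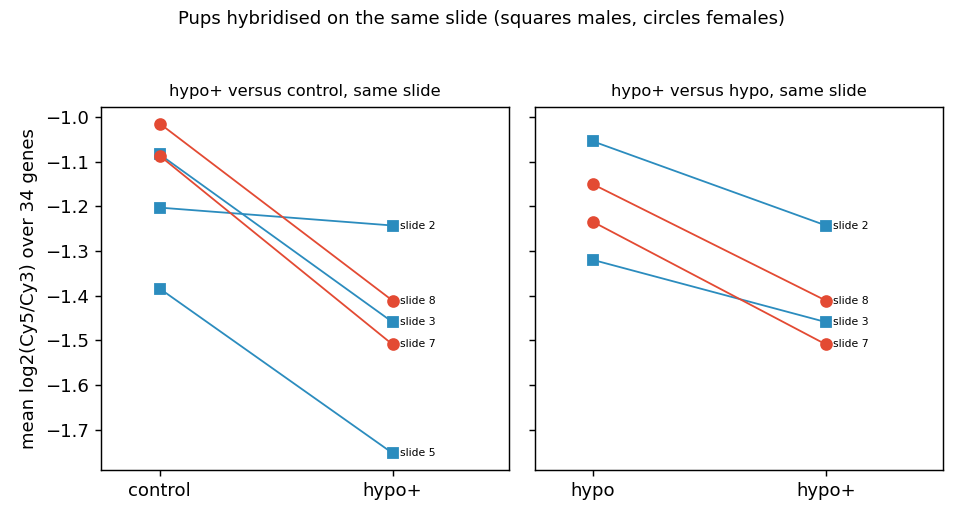
Mean log2 Cy5/Cy3 ratio over the 34 genes (vertical axis) for pups of the same sex that share a slide, blue squares for males and red circles for females, with lines joining the control (left panel) or hypo pup (right panel) to the hypo+ pup. Each hypo+ pup lies below its slide's control and hypo pup, with a difference from control of -0.04 on slide 2 and of -0.42 to -0.37 on the other slides.

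Other genes of the same processes were lower too. Of 35 further replication genes measured, 33 were lower against control (median -0.22) and 7 passed, all lower, where 0.316% of all probes were called lower: Pole, Prim1, Prim2, Fen1, Rfc4, Rfc5 and Chaf1a. Fen1, which trims Okazaki fragments, fell by 0.36 (SE 0.067, adjusted p = 0.007), and Prim1, the primase subunit, fell by 0.48 (SE 0.11, adjusted p = 0.024). Against hypo 14 passed, all lower (median -0.24, 1.40% of all probes called lower): Gins4, Mcm10, Cdc7, Pole, Prim1, Fen1, Rfc4, Rfc5, Rpa2, Lig1, Uhrf1, Dnmt1, Chaf1a and Chek1. Among them were Uhrf1 and Dnmt1, which copy DNA methylation to the new strand, at -0.55 and -0.28 (adjusted p = 0.0155 and 0.00526), and Chek1, the replication checkpoint kinase, at -0.40 (adjusted p = 0.00522). In males alone, Fen1 and Rpa2, part of the protein that coats single-stranded DNA, passed against hypo at -0.40 and -0.39 (limma adjusted p = 0.0389 and 0.0201).

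Of 44 further mitosis genes measured, 43 were lower against control (median -0.41) and 10 passed, all lower, beside 0.316% of all probes: Ccnf, Cenpk, Zwilch, Kif4, Tpx2, Ect2, Racgap1, Ckap2, Cdca5 and Cdca8. Against hypo (median -0.37) 16 passed, all lower, beside 1.40% of all probes. These were the same genes without Racgap1, and Nuf2, Kif15, Kif23, Nek2, Ncapd2, Aspm and Pbk. Ect2, which triggers cell cleavage, had the largest difference of those that passed against control, -0.86 (SE 0.21, 1.81-fold lower, adjusted p = 0.0413). Cdca5 (sororin), which protects sister chromatid cohesion, fell by 0.57 (adjusted p = 0.0166), and Tpx2, which activates Aurora A at the spindle, fell by 0.51 (adjusted p = 0.0373). Zwilch and Cenpk, proteins of the kinetochore, fell by 0.50 and 0.54 (adjusted p = 0.0125 and 0.0131).

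Of 23 cell cycle inhibitors and G1 regulators measured, 0 passed against control in limma (4 lower at unadjusted p below 0.05, beside 5.94% of all probes), with a median of -0.08. Against hypo (median -0.09) 3 passed, where 1.61% of all probes were called higher and 1.40% lower. Gadd45a, a growth arrest and DNA damage gene, was higher by 0.42 (SE 0.076, adjusted p = 0.000778), and Rbl1, a pocket protein that restrains E2F, and Btg1, an antiproliferative gene, fell by 0.36 and 0.48 (adjusted p = 0.034 and 0.0418). Gadd45a was lower in hypo than in control (-0.33, SE 0.074, adjusted p = 0.0136), and hypo+ pups differed from control by 0.09 (adjusted p = 0.794). In females alone it was higher in hypo+ than in hypo by 0.47 (adjusted p = 0.0278).

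Markers of the cell types that divide in a young liver, or that a dissected liver could carry, were set beside these results. Erythroid markers (12 of 14 listed measured) had list means of 0.94 to 1.26 in hypo+ pups and 1.06 to 1.39 in controls. Of the 12, 0 were called against control in limma and 4 were lower at unadjusted p below 0.05, where 5.94% of all probes were lower. Leukocyte markers (11 of 13 measured) ran from 1.21 to 1.91 in hypo+ pups and from 1.40 to 1.96 in controls, with 0 called and 1 lower at unadjusted p below 0.05 (5.94% of all probes). Median differences from control were -0.06 and -0.05 for these lists and from hypo -0.02 and -0.07. Hepatocyte, stellate and endothelial, cholangiocyte and fetal liver markers had 0 called in either hypo+ comparison, with medians between -0.02 and 0.27, and at unadjusted p below 0.05 1 cholangiocyte marker was higher against each group and 1 stellate or endothelial marker against hypo. Pancreatic acinar genes were lower in hypo+ than in control (median -1.18, 0 of 13 called in limma, 12 at unadjusted p below 0.05, beside 5.94% of all probes) and near the hypo level (median 0.20), and the 3 control pups named above were the highest. Of these genes Amy2a5, an amylase, passed in hypo against control (-0.69, limma adjusted p = 0.0463). The part of any of these markers in the lower replication and mitosis values was not tested.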

How the data were processed

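Liver RNA of 34 pups (Cy5) was hybridised against universal mouse reference RNA (Cy3) on 2-colour arrays, with no dye swap. The deposited scanner files give the median spot intensity and the local background intensity in each channel as the authors' scanner software measured them, and a log10 ratio that the software had background-subtracted and dye-normalized. The authors' value table holds log2 ratios after loess in MAANOVA, by the study's methods. Here median intensities, without background subtraction, were turned into log2 ratios and loess-normalized within arrays in limma 3.58.1 (R 4.3.3). Control spots were left out, flagged spots set to missing, and spots of a probe averaged. Each sex was fitted separately with 4 groups (lmFit, eBayes), standing in for the study's permuted Fs statistic, and calls were made at 0.05 after Benjamini-Hochberg adjustment over all 41174 probes. The joint fit of both sexes with litter was an alternative to these. The scripts were tested on simulated data. Counts of arrays or spots above background used the scanner software's own flag. The dim-probe filter used the 5% trimmed mean plus 3 trimmed SDs of 153 negative control spots. Intervals are at 95% confidence. Alternatives covered normexp (offset 50), median centring, the deposited log ratios, Cy5 alone, a dim-probe filter, averaged probes, slide, scan batch, groups fitted, pooled sexes, litter and leaving out each pup. The members, lists and tests were chosen with earlier results of these data known. Values by pup are given, in some or all groups, for Top2a and members that passed. They are also given for the 3 members with the largest mean difference of like sign in both sexes in each comparison. Rrm2, Bub1 and Cdc6 were among these but have differences only, with ranges for Rrm2. Of other lists the genes that passed are named.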

Additional observations from a re-analysis of the deposited data

Results flagged for a closer look

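In groups of 4 or 5 pups, 6 of the 133 sets of values tested held a pup far from the others, close to the 1 in 20 that chance gives. Ccnd1 was highest in hyper male 498 at 0.18, where the next pup was at -0.40. Cdc6 was highest in hypo female 743 at -1.18 (next -1.30), and Cdt1 in hypo female 721 at -2.08 (next -2.33). Mcm3 was lowest in hyper male 583 at -1.48 (next -1.23) and highest in hypo female 575 at -1.11 (next -1.39). Pcna was highest in hypo+ male 546 at -1.05 (next -1.45), the pup whose mean over the replication and mitosis genes lay among the controls.

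Mcm3 also stood out because the injection effect differed between pups with and without goitrogen, by -0.42 (SE 0.085, adjusted p = 0.043), although the injected doses differed.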

How the results depend on the processing

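Of 648 values recomputed under alternatives, 482 were labelled the same, 132 single-gene results kept their direction but lost their call, and 34 counts or medians moved. A single gene was the same if it kept its direction and its call, and a count if it was equal or close. A median was the same if it moved by less than the within-group SD of the mean over the 34 genes (0.187), whatever its sign. Direction was checked for single genes only, of which 0 reversed. No paired analysis was possible on replicate numbers, because these are animal numbers that no groups share, and pups were set beside each other by slide instead. The study's permuted Fs statistic was not run. The cause of each change below was not tested. Apart from the joint fit with litter, the share of all probes called under an alternative was not counted. Whether calls moved over the whole array as they did among the members is thus not known.

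In single-sex fits the 0 member probes called became 15 against control and 13 (of 12 genes, Tyms with 2 probes) against hypo with both sexes in 1 fit, and 8 and 12 with litter as a random block too. In females against hypo they became 1 with probes averaged, 1 with scan batch as a fixed block, 2 with slide as a random block, and 0 to 1 leaving out each pup (1 without control female 882). Male medians moved to -0.65 against control under median centring, and against hypo to -0.16 and -0.18 with slide and scan batch as fixed blocks.

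In the joint fit, the 8 calls against control became 4 with normexp, 0 with median centring, 4 with the authors' values, 3 with the scanner's log ratios, 1 with Cy5 alone, 0 with only the compared groups fitted, 0 with slide as a fixed block, 15 without the litter block and 0 without the slide of hypo+ pups alone, an alternative chosen after seeing the data. Leaving out each pup gave 0 to 19: 0 without control male 881 (smallest adjusted p 0.0503), hypo+ male 363 or hypo+ female 601, 1 without hypo+ male 761, 2 without control male 522 or control females 523 or 831, 4 without hypo female 743, hyper female 783 or hypo+ female 763, 5 without hypo male 311, hypo females 316 or 893, or hyper females 621 or 861, 13 without hypo+ female 543, 16 without hypo+ male 546 and 19 without hyper male 498.

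The 12 calls against hypo became 6 with normexp, 0 with median centring, 5 with Cy5 alone, 2 with slide as a fixed block, 6 with scan batch and 2 without that slide, and leaving out each pup gave 4 (without 601) to 20 (without 546), with 7 without 363 or 761 and 19 without 498. Mcm3, Mcm5, Mcm7 and Cdt1 were called against hypo in all 34 fits that left out a pup, and the other genes that passed in 23 (Tyms) to 33 (Mcm6). Calls against control were less stable. Of the 34 fits, Mcm7 was called in 31, Mcm3 in 29, Cdt1 in 27, Top2a in 26 and Kif20a in 22. Mcm6 was called in 14, Bub1b in 11 and Nusap1 in 9. Over all settings of the single-sex and joint fits, the median over the 34 genes ran from -0.65 to -0.16 for hypo+ against either group.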
